A study of Mus musculus with 4 samples.

Results

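The Rab GTPases are the small G proteins that mark the membranes of the secretory and endocytic pathways, and 54 genes whose symbol was Rab followed by a number were present among the 18364 genes measured by RNA-seq in large peritoneal macrophages (LPMs). Members were taken by symbol alone, so genes for Rab effectors and regulators, whose symbols carry further letters, were not counted as members. A Rab protein cycles between a GDP-bound form, held in the cytosol by GDP dissociation inhibitors, and a GTP-bound form on a membrane, where it recruits effectors such as motors, tethers and fusion factors. Exchange factors load GTP, GTPase-activating proteins switch the Rab off, and a geranylgeranyl transferase adds the lipid anchor. Macrophages use the pathway to move cargo through phagosomes, recycle receptors and secrete mediators.

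The cells came from the peritoneal cavity of C57BL/6 mice aged 8 weeks, where LPMs are the resident macrophages, and 4 bulk libraries of sorted LPMs were compared. The 2 WT libraries carry the genotype wild type, which per the methods of the study stands for *Rxra* fl/fl littermates without Cre. The 2 libraries labelled Rxra-KO carry the genotype *Rxra*-/-, made with Cre driven from the *Lyz2* (LysM) locus on *Rxra* fl/fl, so that deletion depends on LysM activity in myeloid cells. The retinoid X receptor RXRα, the product of *Rxra*, is a ligand-activated nuclear receptor, and the comparison asks which transcripts differ in LPMs when it is deleted in these cells. The study also left out RNA-seq samples that did not group with their own condition. Values are normalised read counts, with 0.5 read added to every gene and 1 scaling factor per library, by TMM per the methods of the study. In each sentence libraries are given as replicate 1 and then replicate 2.

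The libraries held 629030 to 1047021 reads, so that 1 read was worth a value of 0.993 to 1.51. *Rxra* itself had 20 and 28 WT reads against 33 and 77 in the Rxra-KO-labelled libraries (log2 fold change 0.99, adjusted p = 0.183, limma). The table gives 1 value per gene, so reads from the floxed part could not be read apart and the value does not check the deletion. The lowering of *Rxra* that the label implies was thus not seen, and the libraries are called by their labels throughout. *Lyz2*, which carries the Cre, fell by 1.03 on the log2 scale (adjusted p = 0.00163). Of 6 LPM markers, 4 were called lower, with *Gata6* at 35 and 65 reads in WT and at 3 and 24 in the Rxra-KO-labelled libraries. The LPM marker values summed to 6990 and 7661 in WT and to 3865 and 4634 in the Rxra-KO-labelled libraries. Of 8 markers of small peritoneal and monocyte-derived macrophages, 7 were called higher, beside 1.32% of all genes. The study names these 7 among its differing genes in these same samples, so their rise is not independent evidence. The other marker, *Ly6c2*, had a log2 fold change of -0.78 and was not called. Values of the 8 summed to 374 and 110 in WT and to 4332 and 5806 in the Rxra-KO-labelled libraries. Sums of 5 MHC class II genes set WT replicate 2 apart, at 2781 against 192 to 710 in the other libraries. Those of B cells, T cells, mast cells and mesothelium (4 genes each) and of neutrophils stayed between 4.54 and 101 in every library. The neutrophil sum was over only 2 genes, *Retnlg* and *Mpo*, so these low sums do not show that such cells were absent. Dendritic cell markers summed to 44.7 and 43.9 in WT and to 94.1 and 112 in the Rxra-KO-labelled libraries, with 1 of 5, *Cd209a*, called higher.

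A gene was called where limma gave a Benjamini-Hochberg adjusted p under 0.05 over all genes and a log2 fold change of at least 0.6 in size. By this rule 1 of the 54 Rab genes (1.85%) differed between the groups, against 421 of all genes (2.29%). The gene was *Rab27a*, and it was lower in the Rxra-KO-labelled libraries, where 178 of all genes (0.969%) were called lower. None of the 54 was called higher, against 243 of all genes (1.32%). At an unadjusted p under 0.05 there were 5 of the 54 Rab genes, beside 1854 of all 18364 genes. Of the 5, *Rab11a*, *Rab31* and *Rab13* had higher and *Rab27a* and *Rab3d* had lower values in the Rxra-KO-labelled libraries. Over the Rab genes the median log2 fold change was 0.09, beside 0.02 over all genes. Above 0 lay 32 Rab genes and below it 22, beside 9388 and 8964 of all genes. The groups did not overlap for 22 Rab genes (40.7%), beside 38.1% of all genes. Of these, 14 (25.9%) were higher in the Rxra-KO-labelled libraries, beside 18.8% of all genes, and 8 (14.8%) were lower, beside 19.3%. Low genes weigh on the shares over all genes. At a mean value of at least 10, 18 of 35 Rab genes (51.4%) did not overlap, beside 41.9% of all such genes. Called were 2.86% of these 35, beside 4.1%. On the recovered reads edgeR and DESeq2 each called *Rab27a* alone of the family, and voom added *Rab11a*. Counts and shares over members are a description and carry no test. The RNA of a whole sorted population was measured, so fewer cells of a type and less RNA per cell cannot be told apart for any of these genes.

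**Figure D1:**
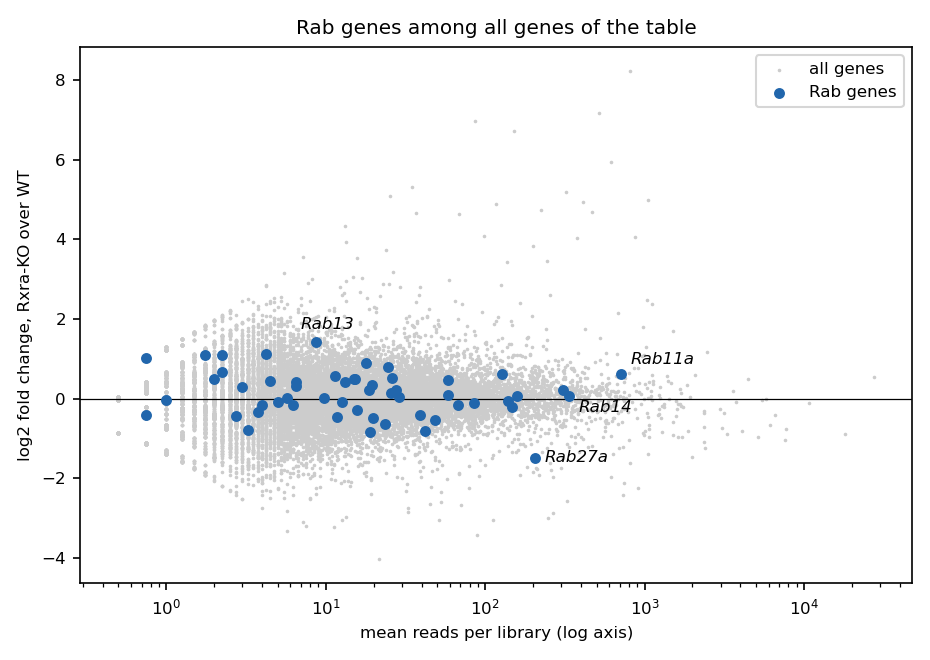
Log2 fold change between the Rxra-KO-labelled libraries and WT (vertical axis) against the mean reads per library (horizontal log axis) for all 18364 genes (grey) and the 54 Rab genes (blue). *Rab27a* lies below the other Rab genes at -1.50.

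The promoters of *Rab27a*, the called member, and of *Rab11a*, the member with the highest value, are shown because the results turn on these genes. The sequences are the 250 bases before each annotated start, from RefSeq on GRCm38.p6, read 5′ to 3′ on the gene's strand. Capitals mark the E-box letters CACGTG, 1 of 3 motifs searched on both strands.
Rab27a, chr9:73044560-73044809, plus strand: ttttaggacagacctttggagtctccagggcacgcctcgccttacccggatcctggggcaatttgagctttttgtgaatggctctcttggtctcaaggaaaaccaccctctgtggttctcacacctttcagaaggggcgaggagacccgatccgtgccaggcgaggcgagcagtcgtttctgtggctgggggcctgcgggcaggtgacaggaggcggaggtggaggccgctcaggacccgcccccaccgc
Rab27a, a further start, chr9:73063898-73064147, plus strand: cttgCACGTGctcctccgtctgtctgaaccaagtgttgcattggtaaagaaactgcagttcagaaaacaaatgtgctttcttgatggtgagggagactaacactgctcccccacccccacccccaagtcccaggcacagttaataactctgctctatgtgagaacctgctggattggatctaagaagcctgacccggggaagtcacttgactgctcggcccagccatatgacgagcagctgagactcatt
Rab11a, chr9:64737757-64738006, minus strand: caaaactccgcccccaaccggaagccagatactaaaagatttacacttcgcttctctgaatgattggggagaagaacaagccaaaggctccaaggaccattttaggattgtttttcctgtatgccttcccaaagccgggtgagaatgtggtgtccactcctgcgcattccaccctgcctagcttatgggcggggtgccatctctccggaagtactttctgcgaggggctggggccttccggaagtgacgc
The nuclear receptor half-site letters AGGTCA and the GATA letters AGATAA are in none of these 3 windows, and the E-box letters stand once, in the window of the further *Rab27a* start. RefSeq windows were matched for 46 of the 54 members, giving 58 windows. AGGTCA was in 3 of them (5.17%), those of *Rab31*, *Rab32* and *Rab43*, against 14.02% of 32851 windows of all genes. CACGTG was in 5 (8.62%, against 6.02%), those of *Rab5a*, *Rab20*, *Rab21*, *Rab23* and *Rab27a*. AGATAA was in 2 (3.45%, against 9.99%), those of *Rab34* and *Rab43*. The Rab windows held a median of 15.5 CG dinucleotides, against 6 over all windows. A match to such letters is a description and says nothing of binding.

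*Rab27a*, which docks secretory granules and lysosome-related organelles at the plasma membrane, had values of 359.6 and 401 in WT and of 157 and 114 in the Rxra-KO-labelled libraries. Both WT libraries were above both of the others. The means were 380 ± 29.2 and 136 ± 30.8 (SD, n = 2), so that WT was 2.81-fold higher. The log2 fold change was -1.50 (SE 0.24, 95% interval -1.98 to -1.02, adjusted p = 8.76e-07, limma). It rested on 237 and 369 reads against 104 and 114. Leaving out any 1 library gave -1.73 to -1.27, with adjusted p-values of 6.94e-07 to 0.00201. The call ended only in limma without a mean-variance trend (adjusted p = 0.504), where a single prior spread serves genes of every level. The fall of the LPM markers and the rise of those of small peritoneal macrophages moved with this difference, and their part in it was not tested. Its paralogue *Rab27b*, which serves exocytosis alongside it, had 2 and 3 WT reads against 4 and 3 in the Rxra-KO-labelled libraries, too few to show a change of either sign.

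Of the other 11 secretory Rab genes none was called. *Rab10*, *Rab8a* and *Rab8b*, which carry vesicles to the cell surface, had log2 fold changes of 0.06, -0.15 and 0.47. *Rab10* had values of 178 and 193 in WT and of 156 and 239 in the Rxra-KO-labelled libraries, so the WT pair lay between the others. Its interval ran from -0.44 to 0.56. Its antisense neighbour *Rab10os* had 14 to 25 reads a library. Over the *Rab10* transcript 3.07% of the 31-base words also occur in *Rab10os*, and reads of that part cannot be told apart without strand.

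*Rab3d*, a Rab of regulated exocytosis, had values of 78.0 and 53.7 in WT and of 26.4 and 51.2 in the Rxra-KO-labelled libraries. All WT values were above the others, but the replicate 2 libraries lay close together. The log2 fold change was -0.80 (SE 0.35, adjusted p = 0.353) and -0.33 at its smallest on leaving out a library, the one left out being Rxra-KO replicate 1. *Rab13*, which brings membrane to cell junctions, had 4 and 4 WT reads against 12 and 15 in the Rxra-KO-labelled libraries. Its values were 6.81 and 4.88 against 18.8 and 15.4 (log2 fold change 1.41, SE 0.66, adjusted p = 0.406). The remaining secretory members were low, with *Rab3c* at 12 to 24 reads and *Rab3a*, *Rab3b*, *Rab37* and *Rab44* at 0 to 9.

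As a sum over the 12 secretory genes, the values were 812 and 846 in WT and 557 and 647 in the Rxra-KO-labelled libraries, and the groups did not overlap. Without *Rab27a* the sums were 452 and 445 against 399.7 and 533, and the WT values lay between the others. The lower secretory sum was thus carried by that gene.

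**Figure D2:**
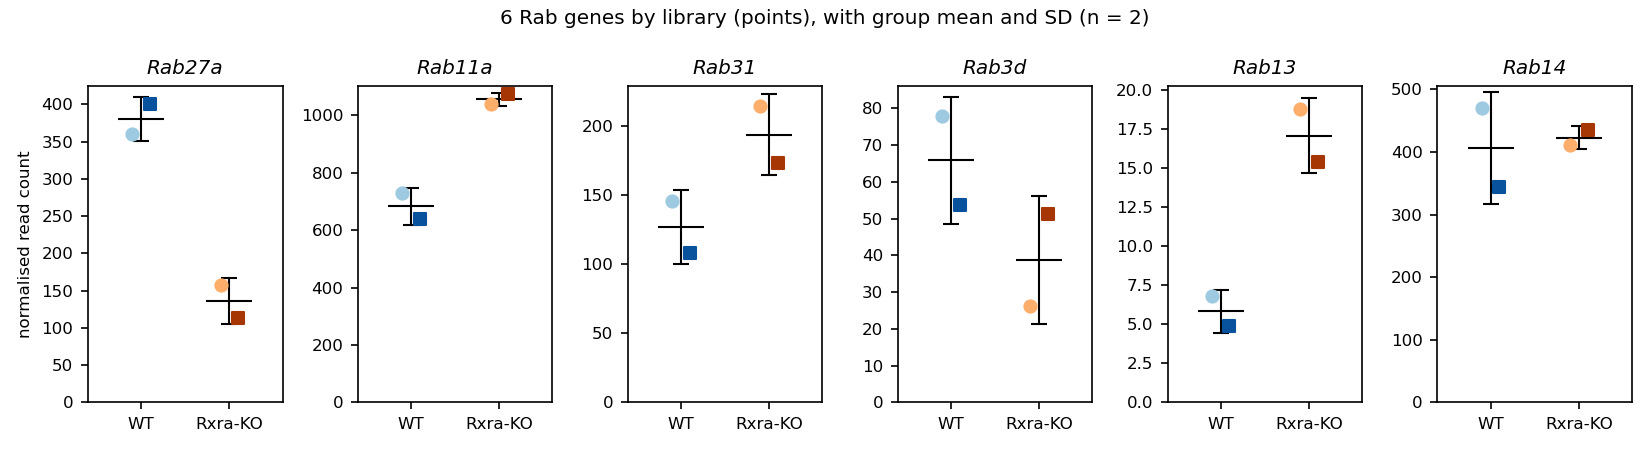
Normalised read count (vertical axes, each from 0) of the 5 Rab genes with an unadjusted p under 0.05 and of *Rab14*, by library (points, WT in blue and Rxra-KO in orange, replicate 1 light and replicate 2 dark), with group mean and SD (n = 2). *Rab27a* drops from 380 to 136 and *Rab11a* goes from 684 to 1057, while the *Rab14* means are 407 and 423.

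*Rab11a*, which returns receptors and membrane from the recycling endosome to the cell surface, was the member with the highest value in every library. It had values of 729 and 638 in WT and of 1041 and 1073 in the Rxra-KO-labelled libraries. The groups did not overlap, and the means were 684 ± 64.1 and 1057 ± 22.6 (SD, n = 2), a ratio of 1.55. The log2 fold change was 0.63 (SE 0.22, 95% interval 0.21 to 1.06), and it did not pass the test (unadjusted p = 0.00381, adjusted p = 0.121). It was called with voom weights (adjusted p = 0.0194). Over the leave-one-out fits it stayed between 0.54 and 0.73, with no call. The study lists both *Rab11a* and *Rab27a* among its differing genes in these samples, so neither is independent evidence of a direction.

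*Rab14*, which works between the Golgi and endosomes, had values of 470.1 and 343 in WT and of 410.3 and 436 in the Rxra-KO-labelled libraries, with a log2 fold change of 0.07 (95% interval -0.37 to 0.52). *Rab11b*, the close paralogue of *Rab11a*, had values of 204 and 190.4 against 168 and 172. It stood at -0.21 (95% interval -0.71 to 0.29), on the other side of 0 from *Rab11a*. The remaining 6 recycling genes, *Rab4a*, *Rab4b*, *Rab15*, *Rab17*, *Rab25* and *Rab35*, had 0 to 10 reads in each library. *Rab25* and *Rab4a* were at or under the floor of 3 reads in every library, and no fold is given for them. *Rab35* was at 0 and 5 reads in WT and at 10 and 2 in the Rxra-KO-labelled libraries, so its log2 fold change of 1.13 came with an SE of 0.81.

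The 9 recycling genes summed to 1415 and 1193 in WT and to 1654 and 1701 in the Rxra-KO-labelled libraries. Without *Rab11a* the sums were 686 and 554 against 613 and 628, and the groups overlapped. Over all members *Rab11a* made up 19.9% and 18.6% of the family's summed value in WT and 27.3% and 28.0% in the Rxra-KO-labelled libraries. *Rab27a* made up 9.8% and 11.7% in WT and 4.1% and 3.0% in the Rxra-KO-labelled libraries. The 5 members with the highest values, *Rab11a*, *Rab14*, *Rab1*, *Rab27a* and *Rab10*, held between 56.5% and 58.4% of the sum in every library. The sum of all 54 was 3655 and 3424 in WT and 3817 and 3828 in the Rxra-KO-labelled libraries, or 0.330% to 0.399% of the reads. Without *Rab11a* it was 2926 and 2785 against 2776 and 2755, with WT the higher. Without *Rab27a* it was 3295 and 3023 against 3659 and 3714, with WT the lower.

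**Figure D3:**
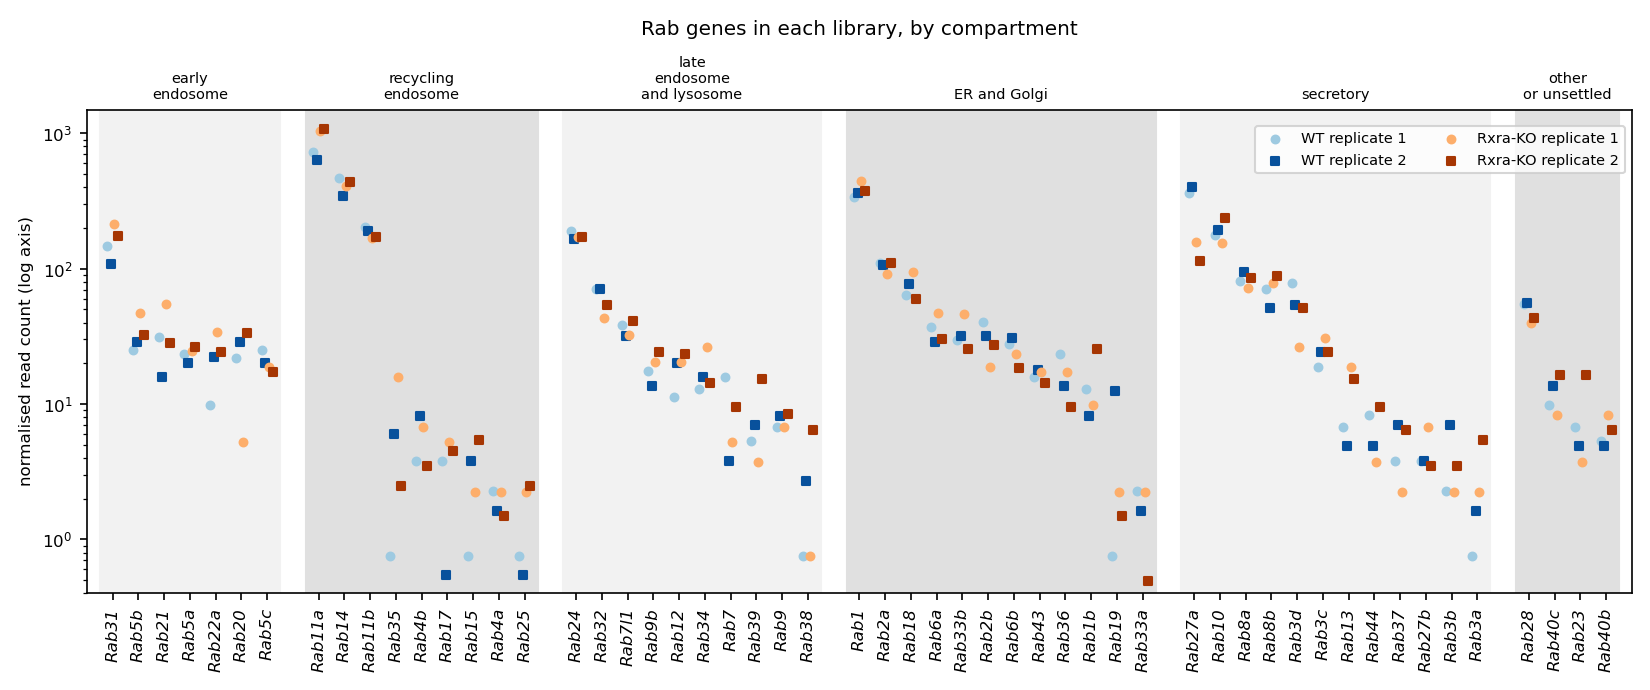
Normalised read count (vertical log axis) of the 54 Rab genes in each of the 4 libraries, grouped by compartment and ordered by mean value within it. *Rab11a* is highest in all 4 libraries, *Rab27a* has the widest gap in fold between WT (blue) and Rxra-KO (orange) among genes above a value of 100, and the lowest members scatter by a few reads.

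Of the 7 early endosome genes none was called, 5 lay above 0 and the median log2 fold change was 0.53. Over all genes 9388 of 18364 lay above 0 and the median was 0.02. *Rab31*, which moves cargo from the Golgi to endosomes, had values of 146 and 108 in WT and of 215 and 173 in the Rxra-KO-labelled libraries. The groups did not overlap, and the log2 fold change was 0.61 (SE 0.26, adjusted p = 0.314). Its near relative *Rab22a*, an early endosome Rab, had 6 and 20 WT reads against 22 and 24 in the Rxra-KO-labelled libraries, with a log2 fold change of 0.91 (SE 0.49, adjusted p = 0.542). *Rab21*, which carries integrins, had 20 and 14 against 36 and 28 reads (0.81, SE 0.42, adjusted p = 0.519), and its groups overlapped in value. Leaving out 1 library moved these differences, to 0.40 without WT replicate 2 for *Rab31*, to 0.36 and 1.46 without WT replicate 1 and 2 for *Rab22a*, and to between 0.34 and 1.28 for *Rab21*. The paralogues of *Rab5*, the Rab of early endosome fusion, had 12 to 32 reads in every library. Their log2 fold changes were 0.23 for *Rab5a*, 0.53 for *Rab5b* and -0.29 for *Rab5c*, each with an interval that held 0.

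*Rab20*, a Rab of the phagosome, had 14 and 26 WT reads against 3 and 33 in the Rxra-KO-labelled libraries. The WT pair lay between the others. The log2 fold change was -0.83 (SE 0.52, adjusted p = 0.651), and it became 0.39 without Rxra-KO replicate 1, so its sign rests on that library. The 7 genes summed to 282 and 244 in WT and to 399.7 and 335 in the Rxra-KO-labelled libraries, and to 136 and 136 against 185 and 162 without *Rab31*. Both WT sums were the lower in either case, and no test was made of the sums.

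None of the 10 late endosome and lysosome genes was called, and none reached a log2 fold change of 0.6 in size. *Rab24*, linked to autophagy, was the highest, at 189 and 167 in WT and at 171 and 170.3 in the Rxra-KO-labelled libraries (log2 fold change -0.05, 95% interval -0.56 to 0.45). Over its transcripts 50.5% of the 31-base words also occur in another gene, mostly *Prelid1*, so its reads could have been split between the 2. *Rab32*, a Rab of lysosome-related organelles, had values of 70.4 and 71.1 in WT and of 42.9 and 54.1 in the Rxra-KO-labelled libraries. The groups did not overlap (-0.54, SE 0.33, adjusted p = 0.629). *Rab38*, its partner in pigment granules, had 0 to 6 reads.

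*Rab7l1*, the older name of *Rab29*, which acts at the Golgi and lysosome, had values of 38.6 and 32 against 32.4 and 41.2 (0.05, SE 0.39). *Rab7*, the main Rab of late endosomes and of phagosome maturation, had only 10 and 3 reads in WT and 3 and 9 in the Rxra-KO-labelled libraries. Of its 31-base words 18.4% are shared, chiefly with the pseudogene *Rab7-ps1*, and the part of sharing in the low value was not tested. *Rab9*, *Rab9b*, *Rab12*, *Rab34* and *Rab39* had 2 to 24 reads and log2 fold changes of 0.02 to 0.51. The sums over the 10 genes, 368 and 341 in WT and 330 and 368 in the Rxra-KO-labelled libraries, overlapped.

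None of the 12 genes of the endoplasmic reticulum (ER) and Golgi was called either, and their median log2 fold change was -0.10. *Rab1*, which drives ER-to-Golgi transport, had values of 337 and 361 in WT and of 446 and 373 in the Rxra-KO-labelled libraries (0.23, SE 0.23, adjusted p = 0.858). *Rab1b*, its paralogue, had 8 and 7 reads against 6 and 25, and its 0.58 became -0.06 without Rxra-KO replicate 2. *Rab2a*, which acts between Golgi and lysosome, had values of 109.8 and 107 against 91.1 and 109.7, and *Rab18*, found on the ER and lipid droplets, 64.4 and 76.5 against 94.1 and 60.1. For both genes the groups overlapped.

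*Rab2b* had values of 40.1 and 32 in WT and of 18.8 and 27.3 in the Rxra-KO-labelled libraries (-0.64, SE 0.43, adjusted p = 0.692). Of its 31-base words 74.0% are shared with other gene models. *Rab6a* and *Rab6b*, which serve retrograde transport to the Golgi, stood at 0.21 and -0.49, with 15 to 31 reads a library. *Rab33b*, *Rab36* and *Rab43* had 9 to 30 reads, and *Rab19* and *Rab33a* had 0 to 11, with *Rab33a* at or under the floor throughout. No gene of the ER and Golgi or of the late endosome group had an unadjusted p under 0.05. The sums over the 12 genes were 701 and 721 in WT and 816 and 695 in the Rxra-KO-labelled libraries.

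Of the 4 members with another or unsettled site, *Rab28*, a Rab of cilia, had values of 55.3 and 55.9 in WT and of 39.9 and 43.2 in the Rxra-KO-labelled libraries. The groups did not overlap, and the log2 fold change was -0.41 (SE 0.35, adjusted p = 0.808). *Rab40c*, which joins a ubiquitin ligase, *Rab40b* and *Rab23*, a regulator of Hedgehog signalling, had 2 to 16 reads and log2 fold changes of 0.02, 0.45 and 0.43.

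**Figure D4:**
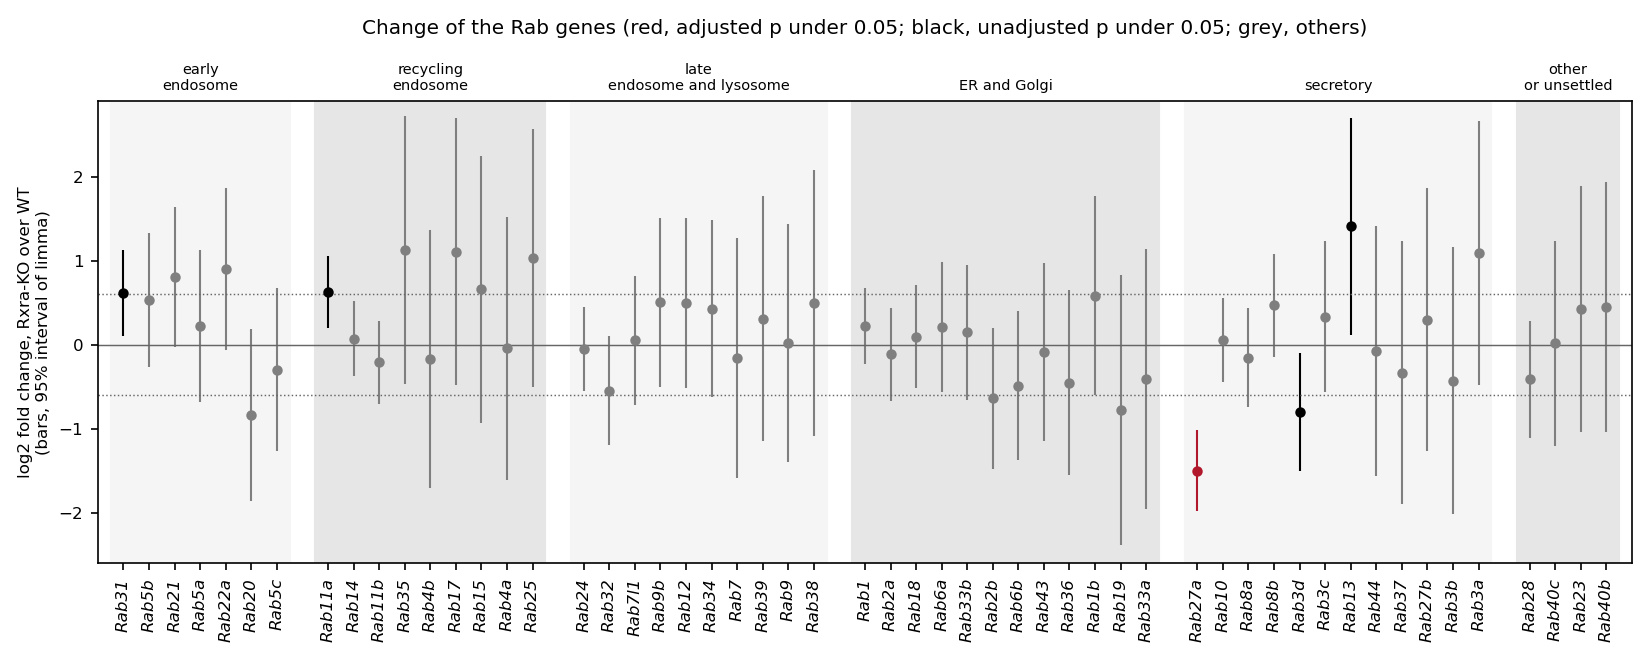
Log2 fold change of the Rxra-KO-labelled libraries over WT (points) with limma's 95% interval (bars) for the 54 Rab genes by compartment, in the same order as the plot of values, with dotted lines at 0.6 and -0.6. Only the interval of *Rab27a* (red) lies wholly beyond -0.6, those of 4 further genes (black) leave out 0, and intervals widen with fewer reads.

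The depth set what could be seen. The SE was 0.62 to 0.82 for the 21 members with a mean under 10 reads, 0.28 to 0.60 for the 25 with 10 to 100 reads and 0.22 to 0.26 for the 8 with at least 100. For 11 members the 95% interval lay within a log2 fold change of 1 in size, and for 3 of these, *Rab10*, *Rab14* and *Rab24*, within 0.6. For the other 43 the interval reached 1 or more. A log2 fold change of at least 0.6 in size was found in 15 Rab genes (27.8%, beside 33.9% of all genes), of which 10 were higher and 5 lower and 7 had a mean under 10 reads. No read was found in at least 1 library for 8 members. Reads carried no molecular identifiers, so floors and intervals from reads cover counting error only.

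Levels between genes were compared per kilobase of the median protein-coding transcript in GENCODE M21. *Rab11a* was first on this scale, at 1240 per kilobase in WT and 1917 in the Rxra-KO-labelled libraries, and it stayed first in WT with its longest transcript (293 per kilobase). *Rab14* followed at 439.7 and 457, then *Rab24* at 219 and 210.4. With longest transcripts *Rab24* (152 per kilobase in WT) stood above *Rab14* (132), and *Rab11b* went from rank 5 to rank 11 (32.3 per kilobase), so the order below *Rab11a* depends on the transcript taken. *Rab1*, *Rab11b* and *Rab27a* were next in WT, at 132, 128 and 124 per kilobase. The libraries of these 3 genes spread over values that overlap, so their order is not fixed. *Rab27a* moved from rank 6 in WT to rank 10 in the Rxra-KO-labelled libraries, where it stood at 44.1 per kilobase.

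Among 8 pairs of close paralogues, 4 had log2 fold changes of opposite sign. These were *Rab27a* and *Rab27b* (-1.50 and 0.30), *Rab11a* and *Rab11b* (0.63 and -0.21), *Rab8a* and *Rab8b* (-0.15 and 0.47) and *Rab6a* and *Rab6b* (0.21 and -0.49). The intervals of *Rab27b*, *Rab11b*, *Rab8a*, *Rab8b*, *Rab6a* and *Rab6b* each ran from negative to positive values, so their signs are not settled. *Rab27b* had only 2 and 3 WT reads against 4 and 3 in the Rxra-KO-labelled libraries. Over all genes 9388 log2 fold changes were positive and 8964 negative. That split is over single genes and no other paralogue pairs were counted, so the 4 of 8 pairs have no background to be set against. The difference within a pair was not tested. Of the 54 members, 22 shared no 31-base word with another gene, *Rab31* and *Rab13* among them, and 13 shared more than 10%. The share was 6.19% for *Rab27a* and 3.09% for *Rab11a*.

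The proteins that act on Rabs were read from lists of 127 genes present in the table, of which 5 (3.94%) were called, beside 2.29% of all genes. In the Rxra-KO-labelled libraries 4 were higher and 1 was lower, beside 1.32% and 0.969% of all genes. No overlap between the groups was seen for 61 of the 127 (48%), beside 38.1% of all genes, and the median log2 fold change was 0.12, beside 0.02. A mean under 10 reads was found for 30 of the 127, beside 9514 of all 18364 genes. Of the genes with a mean value of at least 10, 4.1% were called and 41.9% had no overlap, so the shares over all genes are a low comparison. These lists were chosen with earlier results known, and the shares carry no test. No gene of the 8 for prenylation and membrane extraction was called. At an unadjusted p under 0.05 there was 1, *Gdi2*. This gene, for a GDP dissociation inhibitor that lifts Rabs off membranes, had values of 251 and 245 in WT and of 452 and 331 in the Rxra-KO-labelled libraries (0.64, SE 0.23, adjusted p = 0.169), and it was picked out after its values were seen.

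Of 34 exchange factors, 3 were called (8.82%, beside 2.29% of all genes and 4.1% of those with a mean value of at least 10). *Rab3il1*, an exchange factor also known as GRAB, rose from 2 and 0 reads to 12 and 49. The ratio was 28.9 with a counting interval of 7.66 to 244, and the adjusted p was 0.000141 (limma). *Dennd2a*, of the DENN family, rose from values of 14.4 and 8.14 to 38.4 and 41.2 (log2 fold change 1.78, adjusted p = 0.0161). *Dennd4a*, an exchange factor for *Rab10*, fell from 202 and 209 to 112 and 46.2 (-1.50, adjusted p = 2.98e-05). Without Rxra-KO replicate 2 the call of *Rab3il1* ended (2.87, adjusted p = 0.18), as did that of *Dennd4a* (-0.87, adjusted p = 0.19). *Dennd2a* lost its call without WT replicate 2 or either library labelled Rxra-KO (adjusted p = 0.204 to 0.279).

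Of 35 genes listed as GTPase-activating proteins, 2 were called, both of the TBC family. The share was 5.71%, beside 2.29% of all genes and 4.1% of those with a mean value of at least 10. The list came from general knowledge, and the activity of each protein was not checked. *Tbc1d14*, which links *Rab11* endosomes to autophagy, rose from values of 18.9 and 11.4 to 62.5 and 64.1 (log2 fold change 2.03, SE 0.41, adjusted p = 0.000199), and it kept its call on leaving out each library. *Tbc1d9* rose from 3 and 3 reads to 16 and 23, a ratio of 6.16 with a counting interval of 2.59 to 17.8 (adjusted p = 0.035). Its call ended without WT replicate 2, Rxra-KO replicate 1 or Rxra-KO replicate 2 (adjusted p = 0.112 to 0.406). It also ended with voom weights (adjusted p = 0.0709) and with a minimum value of 10 (adjusted p = 0.0505).

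No gene of the 50 effectors was called, and 8 had an unadjusted p under 0.05, beside 1854 of all 18364 genes. *Rab11fip5*, a *Rab11* effector, had values of 248 and 303 in WT and of 364 and 543 in the Rxra-KO-labelled libraries. The groups did not overlap, and the log2 fold change of 0.70 missed the threshold (SE 0.23, adjusted p = 0.101), which it passed without Rxra-KO replicate 1 (0.98, adjusted p = 0.0275). Without Rxra-KO replicate 2 the log2 fold change was 0.41 (adjusted p = 0.812). The study lists *Rab11fip5*, *Tbc1d14* and *Rab3il1* from these same samples, so they are not independent evidence. The markers of small peritoneal macrophages rose in the same libraries as these genes, and their part in the difference was not tested.

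**Figure D5:**
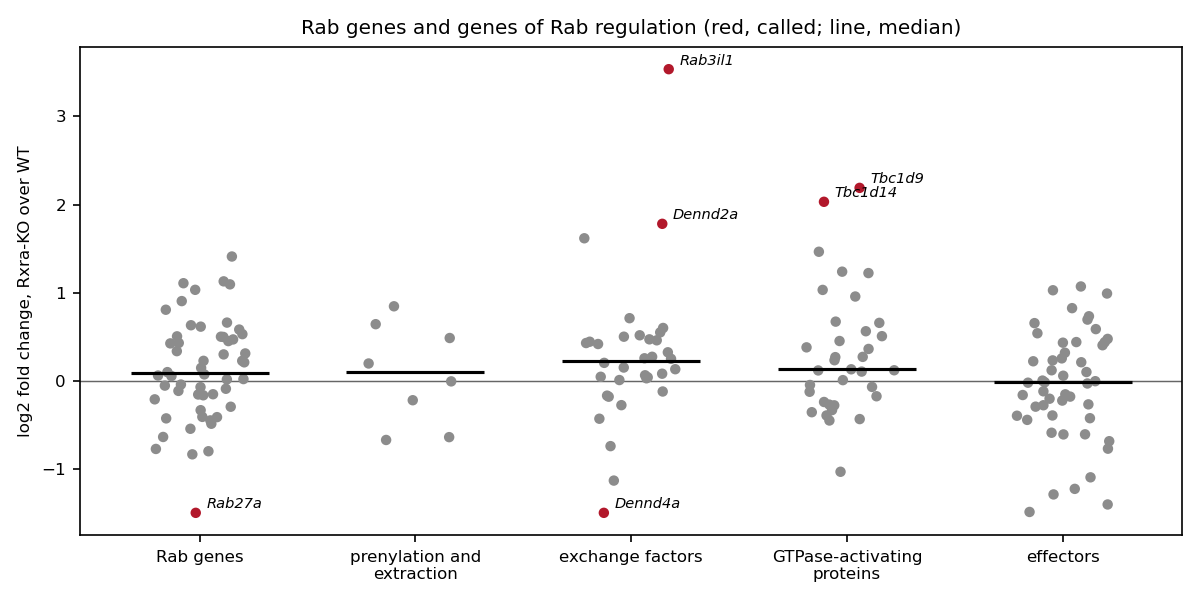
Log2 fold change of the Rxra-KO-labelled libraries over WT (vertical axis) for each Rab gene and each gene of 4 lists of Rab regulation (points, spread sideways for sight), with called genes in red and the list median as a line. The medians lie between -0.02 and 0.23, and the 6 called genes stand at the edges of their lists.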

How the data were processed

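RNA-seq of sorted LPMs was analysed in 4 libraries, grouped by the labels into WT and Rxra-KO (2 each). Per the methods of the study, the authors made SMART-Seq v4 libraries, ran them on a NextSeq-500, quantified transcripts with Kallisto 0.43.0, summarised genes with tximport and scaled by TMM. GRCh38, a human build, is named as the reference although the libraries are from mouse, and the one that gave the reads was not settled. The deposited values are a normalised read signal. Whole reads were recovered for 100% of values (tolerance 0.01 read), between 629030 and 1047021 a library. A floor of 3 reads was used.

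Each gene was fitted with limma 3.58.1 (R 4.3.3) with a mean-variance trend on log2(value + 1), a scale that understates changes of low genes. Genes needed a value of at least 1 in 2 libraries, which removed none of 18364. All p-values are two-sided and were adjusted over all genes (Benjamini-Hochberg). With 2 against 2, an exact permutation test cannot go below a p of 0.333, so each p rests on the spread shared across genes (227 prior and 2 residual degrees of freedom). The labels do not say that libraries came from separate mice, so p-values measure the spread between libraries. Replicates of a group differed by more than sampling noise (chi-square per gene 3.30 in WT and 3.12 in Rxra-KO).

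Alternatives used pseudocounts of 0.1 and 5, a minimum of 10, no filter, other scalings and call rules, a replicate block, each library left out, and on recovered reads edgeR 4.0.16 (446 genes called), DESeq2 1.42.0 and voom. Of the members, 52 had a current RefSeq symbol and 2 an older one. Compartments and regulation lists came from general knowledge, and members and lists were chosen with earlier results of these data known. Genes named with values were the called Rab genes, the 3 highest of each compartment, the 10 largest changes at a mean value of at least 10, called regulators and genes the study lists. The other members are given so that each is accounted for.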

Additional observations from a re-analysis of the deposited data

How the results depend on the processing

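The call of *Rab27a* held under every alternative but limma without a trend, where no gene was called (0 of all genes, 0 Rab genes and 0 regulators, with 1579, 3 and 13 at an unadjusted p under 0.05). edgeR called 446 genes, and DESeq2 246 genes against 421 and 2 regulators against 5, each with 1 Rab gene. Leaving out a library gave 236 to 377 genes (236 without WT replicate 2, 244 without Rxra-KO replicate 1), 1 Rab gene each time and 2 to 5 regulators (3 without WT replicate 2, 2 without Rxra-KO replicate 2). An adjusted p under 0.01 left 3 regulators. Voom called 2 Rab genes. The labels number the replicates and do not say what same-numbered libraries share. Their deviations had a correlation of 0.06 over 10049 genes. The replicate 1 libraries were the shallower in both groups (652542 and 629030 reads, against 947372 and 1047021). Whether same-numbered libraries form pairs was not tested. With the replicate block 2 Rab genes were called, *Rab11a* being added (adjusted p = 0.0102), and 10 regulators, with *Rab11fip5* among them (adjusted p = 0.0167).

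Signs that turned belonged to uncalled genes. *Rab40c* became -0.005 with DESeq2 size factors. Over the leave-one-out fits the log2 fold changes ran from -0.25 to 0.019 for *Rab2a*, -0.22 to 0.42 for *Rab18*, -0.25 to 0.37 for *Rab10*, -0.15 to 0.30 for *Rab14*, -0.14 to 0.035 for *Rab24*, -0.12 to 0.22 for *Rab7l1*, -0.44 to 0.47 for *Rab40c*, -0.51 to 1.36 for *Rab23*, -2.06 to 0.39 for *Rab20* and -0.062 to 1.23 for *Rab1b*. With no turn of sign, they ran from 0.10 to 0.36 for *Rab1*, -0.28 to -0.02 for *Rab8a*, 0.26 to 0.80 for *Rab5b*, -1.27 to -0.33 for *Rab3d* and -0.89 to -0.38 for *Rab2b*. The cause was not tested. The median of the Rab genes stayed between 0.03 and 0.22. Depth limits the 21 members under 10 reads most.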

Other observations

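Genes known to act with single Rabs were read together, in lists drawn up after the values had been seen, so the counts are a description. Of 8 *Rab27* partners, which tether and prime secretory granules, none was called and 6 had a mean under 10 reads. Their median log2 fold change was -0.20, with *Unc13d*, a priming factor of granule release, lowest at -1.23 (5 and 5 reads against 11 and 15 in WT). *Sytl4*, a tether of granules, had values of 113 and 97.1 in WT and of 82.1 and 77.0 in the libraries labelled Rxra-KO.

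Of 9 *Rab11* partners none was called, the median was -0.18, and *Rab11fip2* at -1.40 and *Rab11fip3* at 0.73 marked the ends. Of 12 *Rab5* partners none was called, 10 lay above 0 and the median was 0.26. Over all genes 9388 of 18364 lay above 0 and the median was 0.02. *Eea1*, the tether of early endosomes, had values of 140 and 118 in WT and of 236 and 221 in the libraries labelled Rxra-KO (log2 fold change 0.83, adjusted p = 0.0577, limma). Of 13 *Rab7* partners none was called and the median was -0.12. At an unadjusted p under 0.05 there were 0 *Rab27*, 3 *Rab11*, 3 *Rab5* and 1 *Rab7* partners, beside 1854 of all 18364 genes.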
